A study of Mus musculus with 6 samples.

Results

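AP-1 is a family of transcription factors that act as pairs of Fos, Jun and related proteins, and 8 of its genes were followed here in mouse Th17 cells with and without pyruvate dehydrogenase: Fosl2, Fosl1, Fos, Fosb, Jun, Junb, Jund and Batf3. They were taken by name, by dropping the version from each deposited gene ID and matching it to its mouse symbol, and all 8 were found among the 15452 genes of the table and kept by the filter on low counts. The knockout group was 3 libraries from mice with floxed alleles and CD4 Cre, labelled as a knockout of PDH, the enzyme complex in mitochondria that makes acetyl-CoA from pyruvate. The WT group was 3 libraries from mice with the same floxed alleles and no Cre. Both groups carried the floxed alleles, and Cre was present in the knockout alone, so the effect of Cre and that of the deletion cannot be told apart. CD4 Cre is active in cells that pass a CD4-expressing stage of thymic development, so other T cells of those mice carry it too. The sample titles spell the floxed locus PHD and the genotype labels PDH, and the labels do not give the age or the sex of the mice. In both groups naive CD4+ T cells from spleen and lymph node were cultured for 3 days with plate-bound anti-CD3 (5 µg/mL), anti-CD28 (1 µg/mL), IL-6 (30 ng/mL), TGFβ (2 ng/mL) and anti-IFNγ (5 µg/mL). Nothing in the labels says that replicates came from separate animals, and p-values here cover only the spread among these libraries, which may be technical.

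Fos proteins pair poorly with themselves and rely on a Jun partner, whereas Jun proteins also pair with each other. The pairs bind a short palindromic DNA element, also known as the phorbol ester response element. T cell receptor signalling raises several AP-1 genes within minutes through MAP kinases, and AP-1 then binds DNA together with NFAT at cytokine genes. In mouse Th17 cells JUNB pairs with BATF and works with IRF4 at Th17 genes, and FOSL2 has been described as a brake on the genes of other helper T cell fates.

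Of the 8 genes, 1 fell and 1 rose. Fosl2 fell 4.38-fold and Jun rose, while Fosl1, Fos, Fosb, Junb, Jund and Batf3 were not called. Among all tested genes 47.6% were called in either direction, 23.1% higher and 24.5% lower, so 2 of 8 is a smaller share than the background. The knockout and WT values did not overlap in the same 2 of 8 genes, against 58.2% of all tested genes. Levels are CPM, counts per 1e6 counts after TMM scaling, and changes are log2 fold changes of knockout over WT with their SE. Each adjusted p is from edgeR (quasi-likelihood F test), adjusted by Benjamini-Hochberg over 15361 tested genes, with calls made under 0.05. The 250 bases before the annotated start sites of the 2 called genes are shown here because the results turn on these genes (RefSeq, GRCm38.p6; Fosl2 at chr5:32136222-32136471 on the plus strand and Jun at chr4:95052223-95052472 on the minus strand, both 5′ to 3′), with a variant AP-1 element, TGACATCA, in capitals.
Fosl2: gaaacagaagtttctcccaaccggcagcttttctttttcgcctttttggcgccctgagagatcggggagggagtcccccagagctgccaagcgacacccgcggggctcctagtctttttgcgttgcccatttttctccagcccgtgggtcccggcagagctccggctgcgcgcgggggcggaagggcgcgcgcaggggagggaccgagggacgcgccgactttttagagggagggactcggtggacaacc
Jun: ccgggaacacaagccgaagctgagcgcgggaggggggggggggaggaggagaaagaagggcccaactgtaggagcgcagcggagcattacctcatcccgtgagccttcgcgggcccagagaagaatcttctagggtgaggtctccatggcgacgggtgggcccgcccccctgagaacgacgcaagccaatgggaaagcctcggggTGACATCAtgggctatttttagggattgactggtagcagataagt
Promoter windows of 300 bases, running from 250 before to 50 after the start, were found for 7 of the 8 genes, all but Fosl1. Neither the AP-1 element TGANTCA nor the cAMP response element TGACGTCA occurred in any of the 7 on either strand. TGANTCA was present in 7.81% and TGACGTCA in 1.79% of the 32851 promoter windows. TGACATCA, searched on both strands after the windows had been read and overlapping neither of the others, occurred once among the 7, in Jun from position -45 to position -38 relative to the start, and in 3.62% of all windows. These matches describe letters in a window and nothing of what binds there.

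Among the Fos family, Fosl2 (ENSMUSG00000029135.11, chromosome 5), which encodes FRA2, stood at 37.7, 48.0 and 41.5 CPM in knockout replicates 1 to 3 and at 194, 161 and 202 CPM in WT replicates 1 to 3. The groups lay far apart, and the highest knockout library held less than the lowest WT library. The log2 fold change was -2.13 ± 0.11 (adjusted p = 1.02e-05), with a 95% interval of -2.39 to -1.88. Of 15361 tested genes, 44 had a more negative log2 fold change, and 0.332% of tested genes were called with a decrease of at least 4-fold. In bulk RNA, fewer cells that express a gene and less of its RNA in each cell cannot be told apart.

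Fosl1 (ENSMUSG00000024912.7, chromosome 19), which encodes FRA1, was low and uneven, with 4.11, 9.22 and 8.08 CPM in knockout and 3.46, 5.87 and 3.53 CPM in WT. Groups overlapped, since knockout replicate 1 lay below WT replicate 2. The change of 0.73 ± 0.34 was not called (adjusted p = 0.118), with an interval of -0.07 to 1.54. DESeq2 called it (adjusted p = 0.035), and so did edgeR without knockout replicate 1 (1.01, adjusted p = 0.00965). The 3 libraries with the most Fosl1, knockout replicates 2 and 3 and WT replicate 2, were also those with raised B cell markers. With the summed B cell markers as a covariate the Fosl1 change was 0.26 (adjusted p = 0.342).

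Fos (ENSMUSG00000021250.14, chromosome 12), the immediate-early gene that gave the family its name, was at 4.46, 5.58 and 5.16 CPM in knockout and at 6.13, 12.2 and 4.87 CPM in WT. WT replicate 2 was high, and WT replicate 3 fell inside the knockout range. The change was -0.61 ± 0.34 (adjusted p = 0.178, interval -1.41 to 0.19). The fit without WT replicate 3 called it (-0.86, adjusted p = 0.0464), as did the one with the B cell marker covariate (-0.87, adjusted p = 0.029). Without WT replicate 2 the change was -0.12 (adjusted p = 0.586), and without the 3 libraries with raised B cell markers -0.30 (adjusted p = 0.309).

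Fosb (ENSMUSG00000003545.4, chromosome 7), the least abundant of the 8, was at 1.78, 1.69 and 1.39 CPM in knockout and at 1.05, 2.25 and 0.890 CPM in WT. These levels rest on 49 to 72 counts a library in knockout and 36 to 86 in WT, and the WT values lay on both sides of the knockout values. The change was 0.21 ± 0.34 (adjusted p = 0.628, interval -0.54 to 0.97), and without WT replicate 2 it was called higher (0.74, adjusted p = 0.0342).

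**Figure D1:**
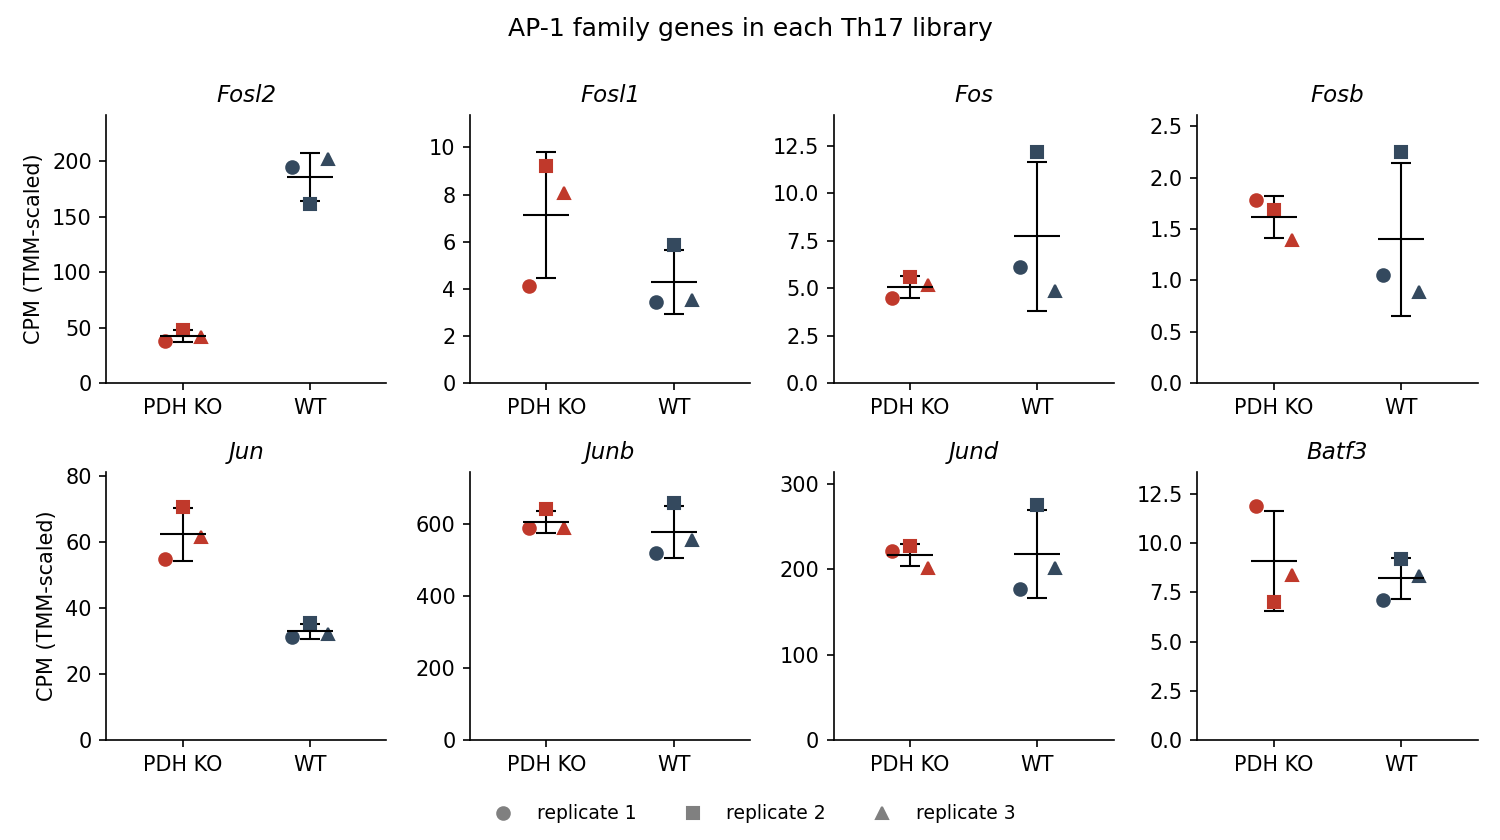
CPM (TMM-scaled, linear axis from 0) of the 8 AP-1 genes in the 3 PDH knockout libraries (red, left) and the 3 WT libraries (dark, right). Marker shape gives the replicate number, the long bar the mean and the whiskers the SD (n = 3); Fosl2 and Jun are the panels without overlap between groups, and WT replicate 2 (square) is the top WT point in every panel but Fosl2.

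Among the Jun family, Jun (ENSMUSG00000052684.5, chromosome 4), which encodes c-JUN, was at 54.7, 70.6 and 61.4 CPM across the knockout replicates and 31.1, 35.4 and 32.2 CPM across the WT replicates. Every knockout library lay above every WT library. The log2 fold change was 0.92 ± 0.10 (adjusted p = 9.3e-05), a 1.89-fold rise, with a 95% interval of 0.70 to 1.14 on the log2 scale.

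Junb (ENSMUSG00000052837.8, chromosome 8), the partner of BATF in Th17 cells, was the most abundant of the 8, at 589, 643 and 591 CPM in knockout and 521, 659 and 556 CPM in WT. The groups overlapped, with the highest and the lowest values both in WT. The change was 0.07 ± 0.09 (adjusted p = 0.548), with an interval of -0.13 to 0.27.

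Jund (ENSMUSG00000071076.9, chromosome 8), a Jun gene expressed in resting as well as activated cells, was at 221, 228 and 202 CPM in knockout and at 177, 275 and 202 CPM in WT. The spread lay in WT, where the CV was 23.5%, against 6.14% in knockout. The change was -0.01 ± 0.16 (adjusted p = 0.972, interval -0.40 to 0.38), and its sign turned under 8 alternatives without any call.

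Batf3 (ENSMUSG00000026630.10, chromosome 1), a small family member that pairs with Jun proteins and is best known in mouse for the development of cross-presenting dendritic cells, was at 11.9, 7.02 and 8.39 CPM in knockout and at 7.13, 9.22 and 8.33 CPM in WT. Knockout replicate 1 was the highest library and knockout replicate 2 the lowest. The change was 0.15 ± 0.19 (adjusted p = 0.555, interval -0.29 to 0.58). Without the 3 libraries with raised B cell markers, where knockout replicate 1 is the only knockout library, it was 0.62 (adjusted p = 0.017). Xcr1, a marker of the same dendritic cells, was at 0.693, 0.659 and 0.538 CPM in knockout replicates 1 to 3 and 0.405, 0.367 and 0.519 CPM in WT replicates 1 to 3. The 5 dendritic cell markers tested of 8 summed to 5.15, 29.5 and 37.2 CPM in knockout and to 2.78, 11.3 and 2.92 CPM in WT. Zbtb46, another of these markers, was at 2.38, 3.72 and 3.03 CPM in knockout and 1.54, 1.78 and 1.85 CPM in WT. Knockout replicate 1, with the most Batf3, had the most Xcr1 by a narrow margin. It had the least Zbtb46 and the lowest summed markers of its group. The 3 highest sums were in the libraries with raised B cell markers. The part of dendritic cells in the Batf3 level was not tested.

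**Figure D2:**
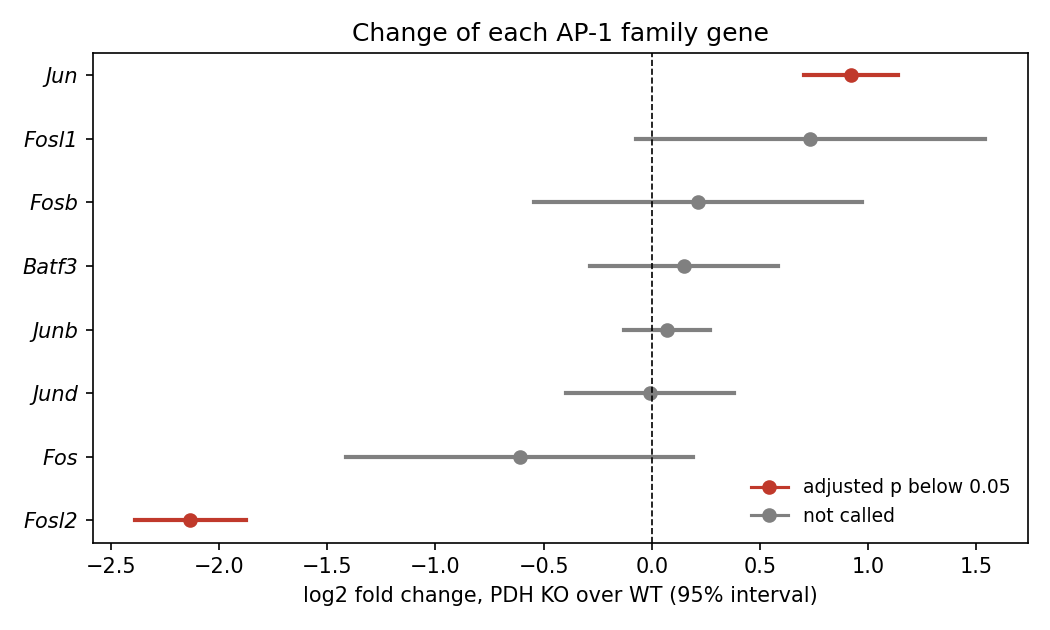
Log2 fold change of PDH knockout over WT for each of the 8 genes (point) with its 95% interval from the edgeR quasi-likelihood fit (bar), ordered by size. The intervals of Jun (0.70 to 1.14) and Fosl2 (-2.39 to -1.88) lie on opposite sides of 0, and the other 6 include it.

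Divided by exon length (the union of protein-coding exons in GENCODE M21), levels can be set against each other. In CPM per kb the knockout order was Junb (336 ± 16.9), Jund (130 ± 7.98), Jun (19.5 ± 2.50), Batf3 (11.4 ± 3.15), Fosl2 (6.49 ± 0.797), Fosl1 (3.83 ± 1.44), Fos (2.40 ± 0.270) and Fosb (0.428 ± 0.0544), all mean ± SD with n = 3. In WT it was Junb (320 ± 39.7), Jund (131 ± 30.7), Fosl2 (28.4 ± 3.28), Jun (10.3 ± 0.691), Batf3 (10.3 ± 1.31), Fos (3.67 ± 1.86), Fosl1 (2.30 ± 0.734) and Fosb (0.370 ± 0.197). Fosl2 thus ranked right after Junb and Jund in WT and below both Jun and Batf3 in knockout. Neighbours whose libraries overlapped were Fosl1 and Fos in knockout, and in WT Jun and Batf3 as well as Fos and Fosl1.

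The makeup of the Fos family differed accordingly. Summed over its 4 genes, the Fos family stood at 10.6, 15.4 and 13.5 CPM per kb in knockout and at 34.8, 34.2 and 35.3 CPM per kb in WT. Fosl2 made up 49.8 ± 4.21% of that sum in knockout and 81.7 ± 8.32% in WT, and Fosl1 28.4 ± 6.50% in knockout and 6.63 ± 2.22% in WT (SD, n = 3 each). The sum over Jun, Junb and Jund was 485 ± 25.1 CPM per kb in knockout and 461 ± 71.1 CPM per kb in WT, and the groups overlapped. Jun supplied 4.01 ± 0.362% of it in knockout and 2.26 ± 0.187% in WT. The ratio of Fosl2 to Jun, in CPM per kb, was 0.337, 0.332 and 0.329 in the knockout libraries and 3.05, 2.23 and 3.06 in the WT libraries. These sums follow from the members' own values and are given without a test.

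**Figure D3:**
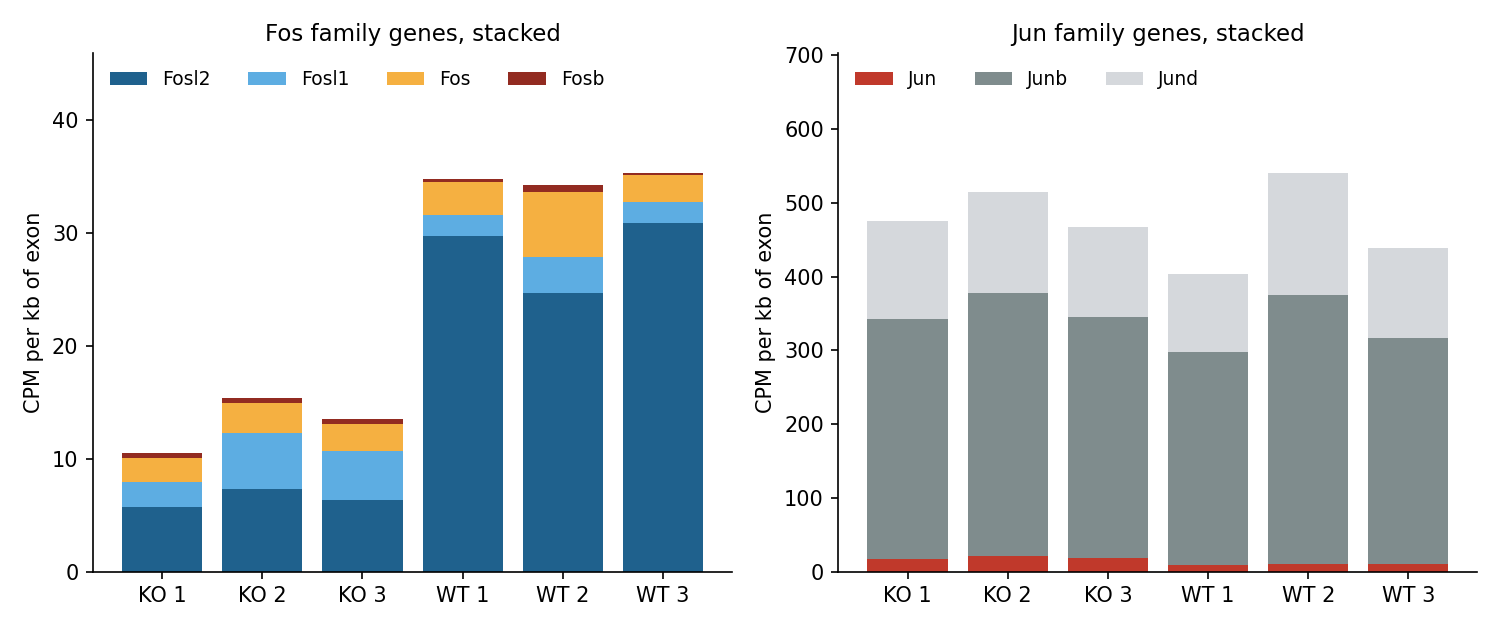
Stacked CPM per kb of exon for the 4 Fos family genes (left panel) and the 3 Jun family genes (right panel) in each PDH knockout and WT library; bars start at 0 and the panels have different scales. The Fos stack is 10.6 to 15.4 in knockout and 34.2 to 35.3 in WT, with the difference in the Fosl2 segment, and the Jun stacks of the groups overlap.

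WT replicate 2 held the highest WT value of 7 of the 8 genes and the lowest of Fosl2. Over all tested genes, WT replicate 2 was the highest WT library in 38.3%. The same library was highest in WT for 14 of 20 other immediate-early genes. Knockout replicate 2 was likewise the highest knockout library for 6 of the 8 genes and 11 of the 20. Over all tested genes it was highest of its group in 32.3%. Egr1, an early growth response gene chosen here after its values were seen, was at 33.8, 54.8 and 46.7 CPM in knockout and at 36.7, 79.5 and 30.3 CPM in WT. Without WT replicate 2 the Fosl2 change was -2.22 (adjusted p = 3.71e-06) and the Jun change 0.97 (adjusted p = 0.000206).

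Facts of the libraries that bear on these values are as follows. The libraries held 33.80 M to 39.40 M counts (M, 1e6) in knockout and 37.56 M to 40.41 M counts in WT. Knockout replicate 2 stood apart. Its largest single entry held 4.95% of its counts, against 1.26% to 1.40% in the other libraries. That library also had 35 entries over 5 times the level of the other knockout libraries, which together took 5.85% of its counts. None of the 8 genes was among them, and without that library Fosl2 was at -2.23 (adjusted p = 1.5e-05) and Jun at 0.82 (adjusted p = 0.000308). Which gene was floxed is not stated in the labels. Pdha1, which encodes the E1 alpha subunit of PDH, was at 198, 193 and 186 CPM in knockout and 256, 236 and 251 CPM in WT (-0.36 ± 0.06, adjusted p = 0.000871), but gene-level counts do not report on single exons. T cell markers were present in every library, with 10 genes summing to 2737 to 2782 CPM in knockout and 3293 to 3468 CPM in WT. Of these 10, 0 rose and 6 fell, with a median log2 fold change of -0.396, against 0.009 over all tested genes. Calls among markers are read beside the 23.1% of all tested genes called higher and the 24.5% called lower. Of 6 Th17 markers 1 rose and 3 fell, and they summed to 606 to 734 CPM in knockout and 931 to 1208 CPM in WT. All 4 gamma delta T cell markers tested rose, with sums of 6.93 to 8.87 CPM in knockout and 3.35 to 5.13 CPM in WT. None of those 4 calls held without the 3 libraries with raised B cell markers, where Trdc, Sox13, Tcrg-C1 and Tcrg-C2 had an adjusted p of 0.0591, 0.127, 0.206 and 0.219. The T cell, Th17 and gamma delta sums separate the groups as Fosl2 and Jun do, and their part in those changes was not tested. The 9 B cell markers other than Cd74 summed to 63.8, 146 and 208 CPM in knockout replicates 1 to 3 and to 67.8, 131 and 54.6 CPM in WT replicates 1 to 3, and the defining gene Pax5 was at 0.248, 11.5 and 18.4 CPM in knockout and 0.378, 5.63 and 0.0494 CPM in WT. Without the 3 raised libraries Fosl2 was at -2.39 (adjusted p = 1.24e-05) and Jun at 0.79 (adjusted p = 0.000594), a fit in which knockout replicate 1 stands alone and is assumed to vary like WT. The 5 myeloid markers tested of 9 summed to 2.46 to 5.21 CPM in knockout and 6.75 to 19.8 CPM in WT. The 3 stroma, epithelium and erythroid markers tested summed to 12.4 to 13.5 CPM in knockout and 18.5 to 21.8 CPM in WT. With Cd74 included, the 10 B cell markers summed to 227 to 443 CPM in knockout and 91.9 to 192 CPM in WT. These sums also separate the groups, that of the B cell markers only with Cd74 included. Their part in the Fosl2 and Jun changes was not tested.

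Among 17 tested partners of AP-1 from the wider bZIP family and the IRF factors that bind beside them, 4 rose and 5 fell. The median log2 fold change was -0.06, against 0.01 over all tested genes. Crem, a cAMP-responsive repressor and activator gene, fell to 20.8 ± 0.707 CPM in knockout, against 123 ± 19.9 CPM in WT (-2.56 ± 0.12, adjusted p = 6.36e-06). Atf3, a stress-induced gene whose protein pairs with JUN, fell to 2.33 ± 0.361 CPM, against 7.46 ± 1.04 CPM in WT (-1.67 ± 0.17, adjusted p = 8.71e-05). Maf, which encodes c-MAF, a factor of IL-10 and IL-21 production in helper T cells, rose to 211 ± 29.1 CPM in knockout, against 123 ± 8.08 CPM in WT (0.78 ± 0.10). Atf7, a JUN-binding factor, rose by 0.40 ± 0.07. Batf, the partner of JUNB in Th17 cells and named after its values were seen, was at 66.3, 67.8 and 71.0 CPM in knockout and 73.8, 77.8 and 67.4 CPM in WT. Its groups overlapped and the change was not called (-0.09 ± 0.07, adjusted p = 0.277, interval -0.25 to 0.06).

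Upstream, 3 of 20 tested MAP kinase cascade genes rose and 8 fell, with a median of -0.14. Mapk3, which encodes the kinase ERK1, fell to 32.8, 31.7 and 38.7 CPM in the knockout libraries, against 90.5, 72.4 and 79.6 CPM in the WT libraries (-1.23 ± 0.10, adjusted p = 3.57e-05). Rps6ka3, which encodes RSK2, a kinase that ERK activates and that phosphorylates c-FOS, and Mapk11, the gene of p38 beta, also fell, with log2 fold changes of -0.80 and -0.57. Map2k7, which encodes MKK7, an activator of the JUN kinases JNK, rose to 84.2 ± 2.19 CPM in knockout, against 60.6 ± 1.45 CPM in WT (0.47 ± 0.06, adjusted p = 0.000169). Mapk8 and Mapk9, the genes of JNK1 and JNK2, were looked at after their values were seen and were not called, with log2 fold changes of -0.03 and -0.04.

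Of 13 regulators of Fos and Jun transcription, 3 rose and 4 fell, and the median was 0.01. Elk4, a ternary complex factor that acts with SRF at the Fos promoter, rose to 78.2 ± 1.72 CPM, against 56.9 ± 1.86 CPM in WT (0.46 ± 0.06). Elk1, of the same class, fell to 16.2 ± 1.41 CPM, against 25.1 ± 1.59 CPM in WT (-0.63 ± 0.09). Mrtfb, a coactivator of SRF, rose by 0.55 ± 0.08, and Stat3, which carries the IL-6 signal of these cultures, fell by 0.38 on the log2 scale (adjusted p = 0.0046), but did not pass against a fold change of 1.2 (adjusted p = 0.0925).

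Of 14 tested genes that govern the turnover of AP-1 proteins and mRNAs, 2 rose and 4 fell, and the median was -0.08. Fbxw7, a ubiquitin ligase subunit that targets JUN, rose to 53.8 ± 3.13 CPM in knockout, against 43.0 ± 0.695 CPM in WT (0.32 ± 0.06, adjusted p = 0.00293). Usp28, a deubiquitinase that opposes FBXW7, and Cops5, a JUN coactivator of the COP9 signalosome, fell, with log2 fold changes of -0.41 and -0.34. Zfp36l1, which destabilises mRNAs with AU-rich elements, rose by 0.56 ± 0.15 (adjusted p = 0.0175). That call was lost without knockout replicate 2, without knockout replicate 3 and without WT replicate 1 (adjusted p = 0.0539, 0.059 and 0.0631). Without the 3 libraries with raised B cell markers, where knockout replicate 1 is the only knockout library, Fbxw7 was at 0.21 and Cops5 at -0.26. None of the 4 passed against a fold change of 1.2, where Fbxw7, Cops5, Usp28 and Zfp36l1 had an adjusted p of 0.185, 0.127, 0.0538 and 0.0666.

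The immediate-early genes that T cell receptor signalling induces alongside AP-1 moved in both directions, with 6 of 20 higher, 6 lower and a median of 0.13. Nr4a2, an orphan nuclear receptor, fell to 8.32, 10.5 and 11.3 CPM in knockout, against 36.8, 35.0 and 38.2 CPM in WT (-1.87 ± 0.11, adjusted p = 1.01e-05). Dusp5, a nuclear phosphatase of ERK, fell to 28.2 ± 2.16 CPM, against 58.2 ± 1.66 CPM in WT (-1.04 ± 0.07). Myc, a driver of growth, rose to 512 ± 34.4 CPM, against 288 ± 23.6 CPM in WT (0.83 ± 0.08). Atf3 belongs to this list as well.

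Of 20 tested T cell genes with described AP-1 elements or a described need for JUNB or BATF, 2 rose and 7 fell, around a median of -0.09. Il23r, the IL-23 receptor subunit, fell to 4.16 ± 1.16 CPM in knockout, against 20.3 ± 1.76 CPM in WT (-2.28 ± 0.18, adjusted p = 3.55e-05). Ctla4, an inhibitory receptor, Il17a, the signature Th17 cytokine, and Lif, a cytokine of the IL-6 family, fell as well, with log2 fold changes of -1.42, -1.31 and -1.07. Il4 and Il5 were not among the genes analysed here. The counts of all 6 pathway lists are read beside the 47.6% of all tested genes that were called: the called share was 52.9% of partners, 55% of cascade genes, 53.8% of transcriptional regulators, 42.9% of turnover genes, 60% of immediate-early genes and 45% of AP-1-linked T cell genes.

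**Figure D4:**
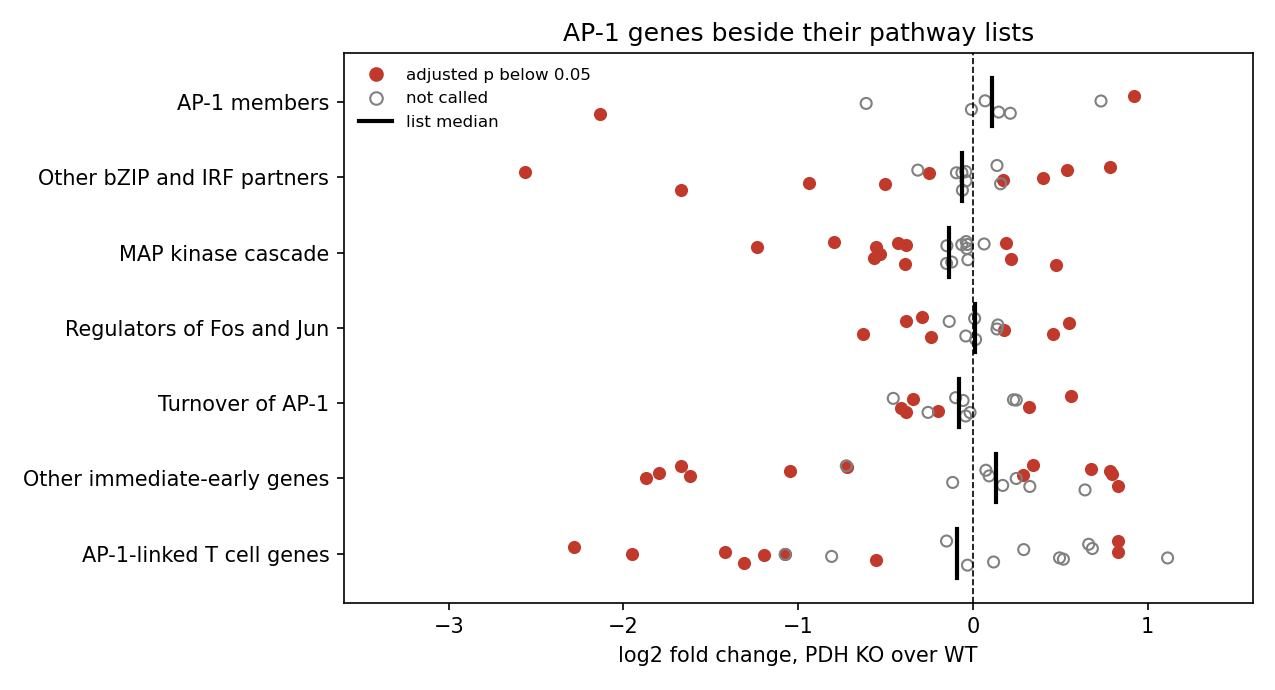
Log2 fold change of PDH knockout over WT for each tested gene of the AP-1 family and of 6 pathway lists (1 row a list, points spread vertically for legibility); filled points have an adjusted p below 0.05 and the black line is the list median. The list medians lie between -0.14 and 0.13, and Fosl2 (-2.13) and Jun (0.92) are the outermost AP-1 members.

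The genes most like Fosl2 were taken as those with the smallest root mean square difference of mean-centred log2 CPM over the 6 libraries, among symbols with a mean of at least 50 counts. They were Lsr, a lipoprotein receptor gene (difference 0.0965), Dgat1, which makes triglycerides (0.102), and Bspry (0.123). Dgat1 fell to 11.7 CPM in knockout, against 54.7 CPM in WT (-2.22 ± 0.10, adjusted p = 2.49e-06), and Lsr and Bspry fell too, with log2 fold changes of -2.08 and -2.09. The genes most like Junb, Mrpl16, Zfp830 and Galnt4, differed from it by 0.0252, 0.0359 and 0.0364 and were not called either (adjusted p = 0.79, 0.552 and 0.756). All these genes were picked on the same 6 libraries. Their changes therefore resemble those of Fosl2 and Junb by construction and are description only.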

How the data were processed

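The deposited table holds the authors' expected counts (reads estimated for each gene, as whole numbers), 1 column per library. Per the labels' protocols, RNA went into a stranded mRNA kit, and Salmon, DESeq2 and DESeq appear, with no version, in the submitters' processing notes. The genome build is not given in the sources used here. In every row 3 or more libraries reach 10 counts, which shows a filter before deposit. No rounding was needed.

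Symbols were matched on unversioned IDs to GENCODE M21 (15125 matched, 327 kept their ID, duplicates of a symbol included). edgeR 4.0.16 in R 4.3.3 was used with filterByExpr (91 genes removed), TMM scaling and a robust quasi-likelihood F test of genotype. The SE is the log2 fold change divided by the square root of F. CPM are TMM-scaled. The test was checked on simulated counts. Alternatives were RLE, upper-quartile and unscaled libraries, DESeq2 1.42.0, limma-voom (limma 3.58.1), other filters, no robust dispersion, a test against 1.2-fold, a replicate block, each library left out, and entries raised in knockout replicate 2 left out. The B cell marker covariate and the removal of 3 libraries were added after seeing the data. A count of 0 would allow up to 3 counts, at most 0.0888 CPM, by counting error alone. Replicates of a group differed by a chi-square per degree of freedom of at least 24.05, so none is another library deposited again.

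The members and lists were chosen with earlier results of these data known. Named are all members, up to 4 called genes of each list with the smallest p, and the 3 nearest profiles of Fosl2 and of Junb, beside genes said to be chosen after their values were seen. Some genes are not reported here. Figures used matplotlib 3.10.9 under Python 3.11.15.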

Additional observations from a re-analysis of the deposited data

How the results depend on the processing

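Fosl2 (log2 fold change -2.39 to -2.06) and Jun (0.79 to 1.00) kept their direction and their call under all 19 alternatives, 2 of which were chosen after seeing the data. The number of members called higher, 1, became 2 by DESeq2 and with the replicate block, both through Fosl1, and 2 without the 3 libraries with raised B cell markers, through Batf3. The number called lower, 1, became 2 with the B cell marker covariate, through Fos. Leaving out each library in turn gave 1 to 2 members higher and 1 to 2 lower. The cause of these changes was not tested. Over all genes, 3548 were higher and 3763 lower, and 2125 and 1856 when tested against a fold of 1.2, a stricter test by construction. Leaving out each library in turn gave 2604 to 3333 higher and 2920 to 3643 lower. Of all called genes 48.53% were higher, and 59.95% with upper-quartile factors.

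Uncalled values turned sign in these cases, and the cause was not tested. Jund, at -0.01, was at 0.074 with upper-quartile factors, 0.036 with library totals, 0.038 with the filter of at least 50 counts, 0.015 by limma-voom, 0.015 with the replicate block and 0.22 without the 3 libraries with raised B cell markers. With each library left out in turn, Jund ran from -0.14 to 0.19, Batf3 from -0.099 to 0.30, Junb from -0.0015 to 0.17 and Fosb from -0.030 to 0.74.

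Same-numbered libraries' deviations from their group means correlated at -0.098, 0.092 and -0.26. Pairs with unlike numbers ran from -0.182 to 0.271. With 3 libraries a group, these values cannot decide whether replicate numbers pair the samples. The replicate block gave Fosl1 0.70 (adjusted p = 0.0142), called no other member differently, and called 3473 genes higher and 3745 lower. Fosb and Fosl1, at 36 to 86 and 128 to 322 counts a library, are the members with the fewest counts, which limits the size of difference they can show.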
